A study of Mus musculus with 21 samples.

Results

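*Wnt11* and 9 other Wnt ligand genes (*Wnt2*, *Wnt3*, *Wnt4*, *Wnt5a*, *Wnt6*, *Wnt7b*, *Wnt10a*, *Wnt10b* and *Wnt16*) were followed in the skin of mice that carry a transgene of *Ifnk*, the gene of the epidermal type I interferon IFNκ. They are 10 of the 19 Wnt ligand genes and 10 of the 55491 genes in the skin table, matched by gene symbol. The ligands were chosen from skin values of these libraries that were already known, with *Wnt11* at the head, so their skin values are given as a description, with no p-value of their own. Counts of ligands past the threshold of the fit over all genes are given beside the share of all genes and are no test of the ligands, for any of the 3 skin comparisons. The other 9 Wnt ligands, the rest of the pathway and the lymph nodes are set beside them with adjusted p-values. The pathway lists, too, were chosen with earlier results of these data known.

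Untreated skin, labelled NoTx throughout, was taken at 12 months of age from 3 groups, 3 BALB/c wild-type (WT) libraries (numbered 8, 9 and 10), 2 from nonlesional (NL) skin of *Ifnk* transgenic (TG) mice (2 and 3) and 4 from lesional (L) TG skin (4 to 7). The transgene is driven by the keratin 14 promoter, which is active in basal keratinocytes, and TG mice were made on C57BL/6 and backcrossed to BALB/c. Inguinal lymph nodes of WT and TG mice, untreated (NoTx) or after repeated UVB at 250 mJ/cm2, gave 3 libraries in each of 4 groups. Neither sex, site on the body nor the animal is labelled for a library, so p-values measure the spread between these samples, which may be technical.

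Wnt proteins are secreted lipid-modified signals. Porcn attaches the lipid and Wls carries the ligand to the cell surface. On the receiving cell, Frizzled receptors with Lrp5 or Lrp6 pass the signal to β-catenin, which enters the nucleus and acts with Lef1 and Tcf factors on target genes, whereas Ror2, Ryk and the planar polarity proteins act without β-catenin. In skin, Wnt ligands of the epidermis and dermis are known for starting hair follicles, for renewing the epidermis and for bringing resting follicles into growth (anagen). *Wnt10a* and *Wnt10b* are β-catenin ligands linked to follicle growth, *Wnt3* and *Wnt4* are epithelial ligands, *Wnt5a* and *Wnt11* are the ligands most often tied to signaling without β-catenin, and *Wnt2* is a ligand of mesenchymal cells in several organs.

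*Wnt11* (ENSMUSG00000015957) lies on the plus strand of chromosome 7 at chr7:98835112-98855195 (GRCm38, GENCODE M21). RefSeq gives it 2 transcription starts, and because *Wnt11* differed most from NL skin of the 10 ligands, the 250 bases before each start are shown, 5′ to 3′ on the plus strand of GRCm38.p6. The window of the upstream start is chr7:98834862-98835111, outside the gene. That of the inner start is chr7:98838595-98838844, in an intron of the longer transcripts. Capitals mark a match to CTTTGA, the core of sites bound by Lef1 and Tcf factors, read here on the other strand as TCAAAG.
*Wnt11*, upstream start: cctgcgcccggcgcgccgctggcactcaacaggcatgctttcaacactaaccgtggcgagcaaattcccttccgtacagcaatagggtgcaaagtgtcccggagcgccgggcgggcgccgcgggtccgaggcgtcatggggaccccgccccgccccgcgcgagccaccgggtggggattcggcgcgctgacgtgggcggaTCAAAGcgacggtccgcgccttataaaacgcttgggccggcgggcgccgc
*Wnt11*, inner start: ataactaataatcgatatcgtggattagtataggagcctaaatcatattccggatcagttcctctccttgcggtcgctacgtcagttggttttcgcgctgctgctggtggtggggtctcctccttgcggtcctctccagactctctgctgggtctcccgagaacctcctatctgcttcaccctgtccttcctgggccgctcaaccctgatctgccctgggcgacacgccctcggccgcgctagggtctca

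The upstream window holds 70.8% G and C and the inner one 56.8%. The match begins 50 bases before the upstream start. Over windows of 300 bases (250 before and 50 after a start), CTTTGA was found on either strand in 5257 of 32851 RefSeq windows (16%) and in 1 of the 8 windows of the 7 ligands that have one (*Wnt2*, *Wnt3*, *Wnt4*, *Wnt6*, *Wnt10b*, *Wnt11* and *Wnt16*). The core of interferon-stimulated response elements, searched as GAAA, any 2 bases and GAAA, was found on either strand in 3.44% of all windows and in 0 of these 8. A match is a run of letters, not a measured site. *Wnt5a* lies at chr14:28504750-28527448 on the plus strand, *Wnt2* at chr6:17988940-18030585 on the minus strand and *Wnt4* at chr4:137277489-137299726 on the plus strand. *Wnt6* and *Wnt10a* are next to each other on chromosome 1, 6193 bases apart.

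*Ifnk* itself had 0 counts in the 3 WT libraries, 6 and 0 counts in NL libraries 2 and 3 and 14, 11, 5 and 8 counts in L libraries 4 to 7. The library labelled NL 3 therefore shows no *Ifnk* transcript at this depth, where a count of 0 allows up to 3. These counts are of the gene as a whole, so a count of 0 does not check the genotype. For the ligands that stand apart from NL skin the fold change is also given without NL library 3. In the nodes *Ifnk* had 0 counts in all 12 libraries, which checks no genotype there.

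The skin libraries held 40499078 to 56511276 counts and the node libraries 27599809 to 36428435. In every skin library the basal epidermal markers were present (*Krt5*, *Krt14*, *Col17a1*, *Itga6*, *Itgb4* and *Trp63*, none at 0 in all libraries of a group), and in the nodes T cell markers summed to 1476 to 1907 CPM and B cell markers to 806 to 1663. CPM here is the counts-per-million level after scaling each library by TMM. In bulk tissue, fewer cells of a type and less RNA per cell cannot be told apart.

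By log2 fold change, *Wnt11* differed most of the chosen ligands between L and NL skin, and *Wnt2*, which was lower, differed most between L and WT. *Wnt11* stood at 3.65, 4.46 and 4.35 CPM in the WT libraries and at 2.89 and 2.62 CPM in the NL libraries. In L skin the 4 libraries (4, 5, 6 and 7) held 22.6, 25.2, 23.4 and 33.1 CPM. All L libraries were above all others, and both NL libraries were below every WT library. The log2 fold change was 2.65 ± 0.18 (standard error) for L against WT, a 6.27-fold higher level, and 3.24 ± 0.22 for L against NL, 9.45-fold higher. Between NL and WT it was -0.59 ± 0.20. Set against the WT mean, the L libraries were 5.44 to 7.97 times as high, so the elevation was present in each of them.

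*Wnt5a*, the other ligand known mainly for signaling without β-catenin, moved the same way over a wider range. Its WT libraries held 22.9, 12.7 and 16.0 CPM and its NL libraries 18.8 and 11.1 CPM. The L libraries held 39.6, 50.3, 60.8 and 75.2 CPM. WT and NL overlapped and L lay above both. The log2 fold change was 1.72 ± 0.30 against WT and 1.92 ± 0.36 against NL.

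*Wnt2* went the other way. In WT skin it stood at 8.39, 14.1 and 10.4 CPM, in NL skin at 8.73 and 4.39 CPM, and in L skin at 0.84, 0.32, 1.85 and 2.88 CPM. The NL libraries reached into and below the WT range, and every L library was below both groups. The log2 fold change of L was -2.88 ± 0.62 against WT (7.37-fold lower) and -2.15 ± 0.67 against NL. Within L skin the level varied 8.99-fold, the widest span of the 10 ligands.

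*Wnt4*, *Wnt6*, *Wnt10a* and *Wnt10b* exceeded WT levels in L skin by smaller steps, with the NL means in between. *Wnt4* held 41.7, 34.7 and 35.7 CPM in WT, 51.0 and 54.7 CPM in NL, and 88.6, 66.7, 68.2 and 62.6 CPM in L skin. The 3 groups did not overlap, and the log2 fold change of L was 0.94 ± 0.14 against WT and 0.44 ± 0.15 against NL. *Wnt10a* held 20.7, 15.5 and 14.9 CPM in WT, 23.3 and 23.9 CPM in NL, and 30.2, 30.04, 31.99 and 21.2 CPM in L skin. Here L library 7 fell below both NL libraries but stayed above WT (log2 fold change 0.73 ± 0.17 against WT, 0.26 ± 0.19 against NL).

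*Wnt6*, which lies beside *Wnt10a* and is expressed in epithelia, held 3.15 to 3.44 CPM in WT, 3.67 and 4.49 CPM in NL and 4.61 to 7.19 CPM in L skin, ranges that did not overlap (0.76 ± 0.20 against WT on the log2 scale). *Wnt10b* held 6.58 to 7.91 CPM in WT, 9.90 and 10.4 CPM in NL and 8.63, 9.55, 11.8 and 16.7 CPM in L skin. Its L libraries lay above WT, reached below and above the NL pair, and differed from WT by 0.68 ± 0.23.

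*Wnt3*, *Wnt7b* and *Wnt16* overlapped between L and WT skin. *Wnt3* held 45.8, 20.9 and 36.03 CPM in WT, 59.0 and 44.9 CPM in NL and 49.5, 50.3, 39.1 and 30.1 CPM in L skin (0.30 ± 0.28 for L against WT on the log2 scale). *Wnt7b*, a ligand of the epidermis, held 44.1, 36.3 and 38.6 CPM in WT, 58.1 and 68.7 CPM in NL and 49.5, 36.4, 43.9 and 13.8 CPM in L skin. Its NL libraries were the highest of the 9, and the difference between L and WT was -0.14 ± 0.36. *Wnt16* held 3.67, 3.25 and 4.57 CPM in WT, 4.47 and 6.99 CPM in NL and 6.85, 4.24, 2.67 and 1.28 CPM in L skin, so that L skin ran from below both other groups to just under the highest NL library (-0.03 ± 0.49 against WT).

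**Figure D1:**
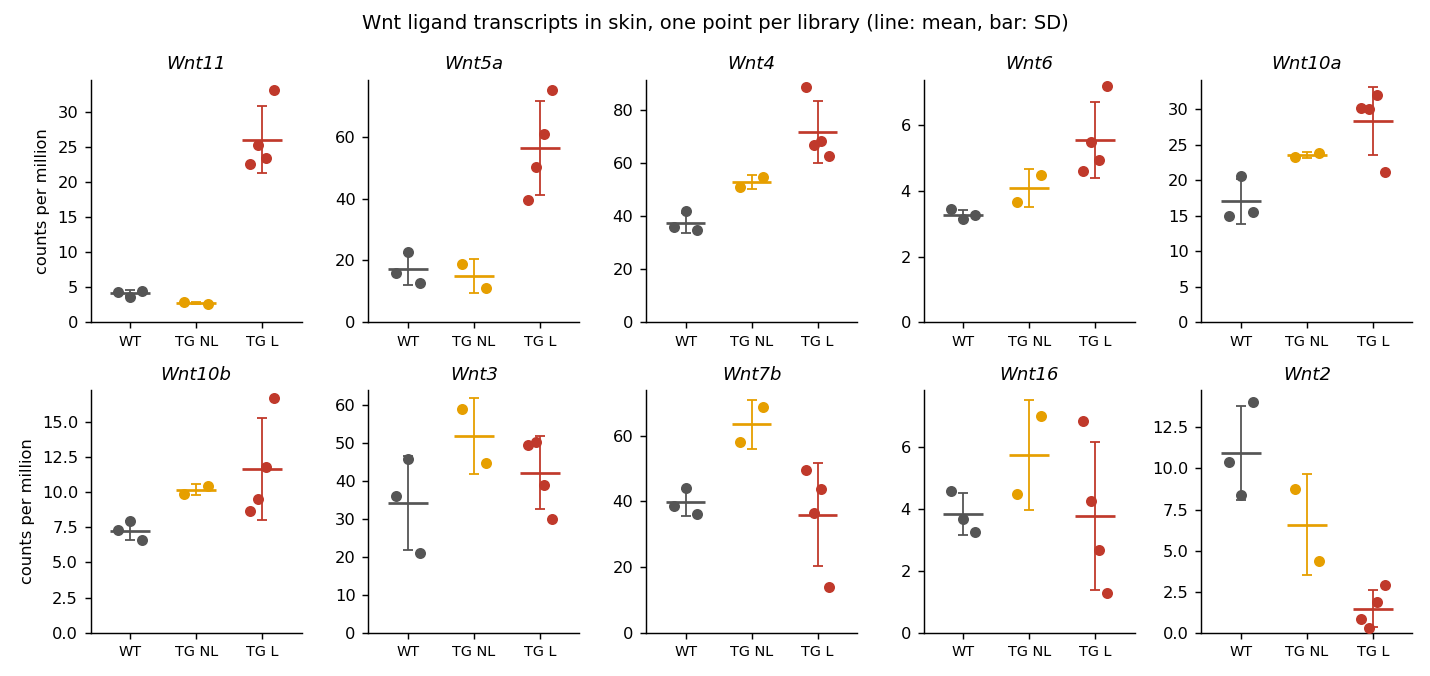
Level in CPM (vertical axes, from 0) of the 10 Wnt ligands in WT, TG NL and TG L skin, with 1 point per library, a line at the mean and a bar of 1 SD. *Wnt11* and *Wnt5a* of the L libraries lie above all others, *Wnt2* of the L libraries lies below all others, and *Wnt3*, *Wnt7b* and *Wnt16* overlap between L and WT.

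With edgeR's quasi-likelihood fit and an adjusted p under 0.05 over 19101 genes, 6 of the 10 ligands were past the threshold as higher in L than in WT skin (*Wnt4*, *Wnt5a*, *Wnt6*, *Wnt10a*, *Wnt10b* and *Wnt11*) and 1 as lower (*Wnt2*). Of all tested genes, 23% were called higher and 20.2% lower. The libraries of L and WT did not overlap for the same 7 ligands, where 26% of all genes lay wholly higher and 23.4% wholly lower. The median log2 fold change was 0.71 over the 10 ligands and 0.06 over all genes. Which skin comparison the ligands were chosen on is not given, so all 3 were treated as used by the choice, and these counts support nothing further. *Wnt6* fell short of the threshold without WT library 8 or WT library 9. *Wnt10b* lay past it in 8 of 16 alternatives. Among others, *Wnt10b* fell short without L library 6, without any 1 of the NL or WT libraries and with hair genes left out.

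Between L and NL skin, 2 of the chosen ligands lay past the threshold as higher (*Wnt5a* and *Wnt11*) and 1 as lower (*Wnt2*), where 13.2% and 11.8% of all genes did. These counts, too, come from values the choice may have used. Libraries did not overlap for 4 higher (*Wnt4*, *Wnt5a*, *Wnt6* and *Wnt11*) and 2 lower (*Wnt2* and *Wnt7b*), where 24.7% of all genes lay wholly higher and 24.7% wholly lower. This comparison shares its L libraries with the one against WT. Without NL library 3, whose *Ifnk* count was 0, the log2 fold change of L against NL was 3.19 for *Wnt11*, 1.60 for *Wnt5a*, 0.50 for *Wnt4*, 0.61 for *Wnt6*, -0.68 for *Wnt7b* and -2.55 for *Wnt2*, of which only *Wnt11* lay past the threshold. Without L library 7, 5 ligands did (*Wnt4* and *Wnt7b* in addition). *Wnt2* also fell short, among others, without L library 4 or 6, NL library 2 or any 1 of the WT libraries. It lay past the threshold in 7 of 16 alternatives.

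Between NL and WT skin no ligand lay past the threshold with edgeR, where 0% of all genes were called. At an unadjusted p under 0.05 in edgeR, 1465 of 19101 genes differed, and DESeq2 called 80 genes, none of the ligands among them. Libraries did not overlap for 5 ligands that were higher in NL (*Wnt4*, *Wnt6*, *Wnt7b*, *Wnt10a* and *Wnt10b*, log2 fold changes 0.31 to 0.68) and for *Wnt11*, which was lower. Without NL library 3 the log2 fold change was -0.55 for *Wnt11* and 0.13 to 0.52 for these 5. The shares of all genes that lay wholly apart were 18.6% higher and 16.3% lower. The summed CPM of the basal epidermal markers moved with the 5 higher ligands (4247 to 5073 in WT, 7533 and 8099 in NL), and its part in the result was not tested.

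**Figure D2:**
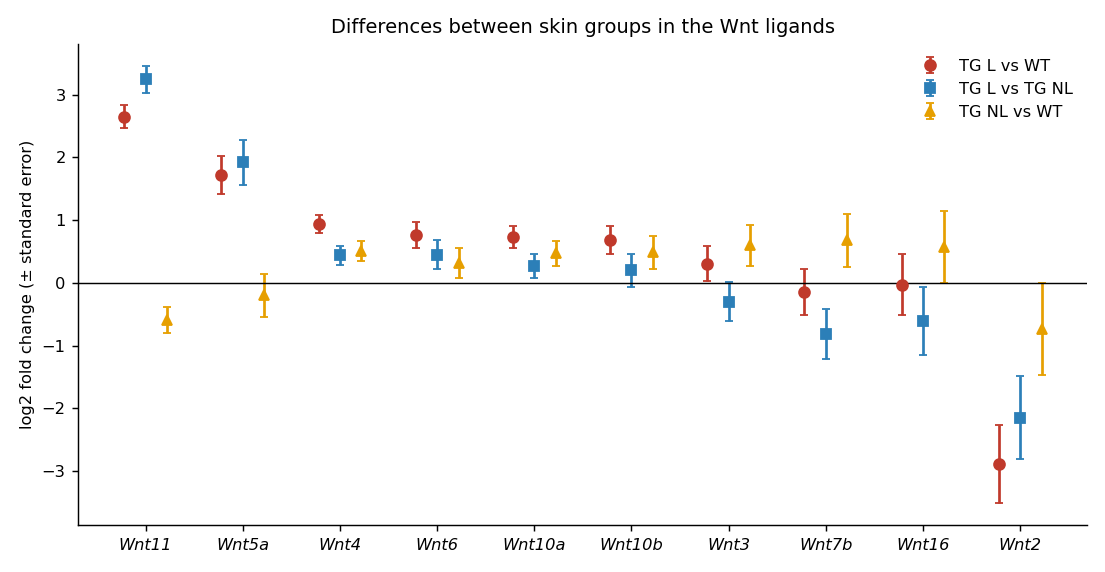
Log2 fold changes (vertical axis, bars of 1 standard error) of the 10 ligands for TG L against WT, TG L against TG NL and TG NL against WT skin. *Wnt11* stands at 2.65 and 3.24 in the comparisons of L skin and at -0.59 between NL and WT, and *Wnt2* is the ligand farthest below 0.

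The order of the ligands by level also differed between the groups. Levels of different genes are compared here as CPM per kb of merged exon. In WT skin *Wnt3* led with 11.1 ± 4.07 (SD, n = 3), followed by *Wnt4* at 8.90 ± 0.91, *Wnt7b* at 8.10 ± 0.82, *Wnt10a* at 6.90 ± 1.28 and *Wnt2* at 4.85 ± 1.27, and each of these overlapped the next. A gap separated them from *Wnt5a* at 2.19 ± 0.67 and *Wnt10b* at 2.14 ± 0.20, which overlapped each other. *Wnt6* (1.496 ± 0.067) was apart from its neighbors on both sides, and *Wnt11* (1.004 ± 0.107) and *Wnt16* (0.879 ± 0.155) overlapped at the bottom.

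In NL skin (n = 2) *Wnt3* led with 16.9 CPM per kb, apart from *Wnt7b* (12.9) and *Wnt4* (12.6), which overlapped each other. *Wnt10a* followed at 9.56, then *Wnt10b*, *Wnt2*, *Wnt5a* and *Wnt6* in a run of overlapping neighbors (2.99 to 1.86), and *Wnt16* and, last, *Wnt11* at 0.666, each apart from the next. In L skin (n = 4) *Wnt4* led with 17.1 ± 2.77, and neighbors overlapped from there through *Wnt3* (13.7 ± 3.11), *Wnt10a* (11.5 ± 1.97), *Wnt7b* (7.33 ± 3.20), *Wnt5a* (7.22 ± 1.94) and *Wnt11* (6.30 ± 1.16). *Wnt11* thus ranked 9 of 10 in WT skin, 10 in NL skin and 6 in L skin, and its L libraries were apart from the next ligand, *Wnt10b* (3.43 ± 1.06). *Wnt2* went from rank 5 in WT skin to rank 10 in L skin (0.65 ± 0.50), where it overlapped *Wnt16* (0.86 ± 0.55).

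As shares of the summed per-kb level of the 10 ligands, *Wnt11* made up 1.62% to 2.58% in WT libraries, 1.07% and 1.02% in NL and 7.12% to 12.6% in L libraries. *Wnt2* made up 6.85% to 14.9% in WT, 3.14% and 5.94% in NL and 0.20% to 2.01% in L libraries. The summed CPM of the 10 ligands was 152 to 202 in WT, 232 and 240 in NL and 264 to 301 in L skin, and the groups did not overlap. Summed per kb, the level was 41.9 to 54.3 in WT, 62.1 and 65.2 in NL and 63.5 to 76.7 in L skin. On that measure L and NL skin overlapped.

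**Figure D3:**
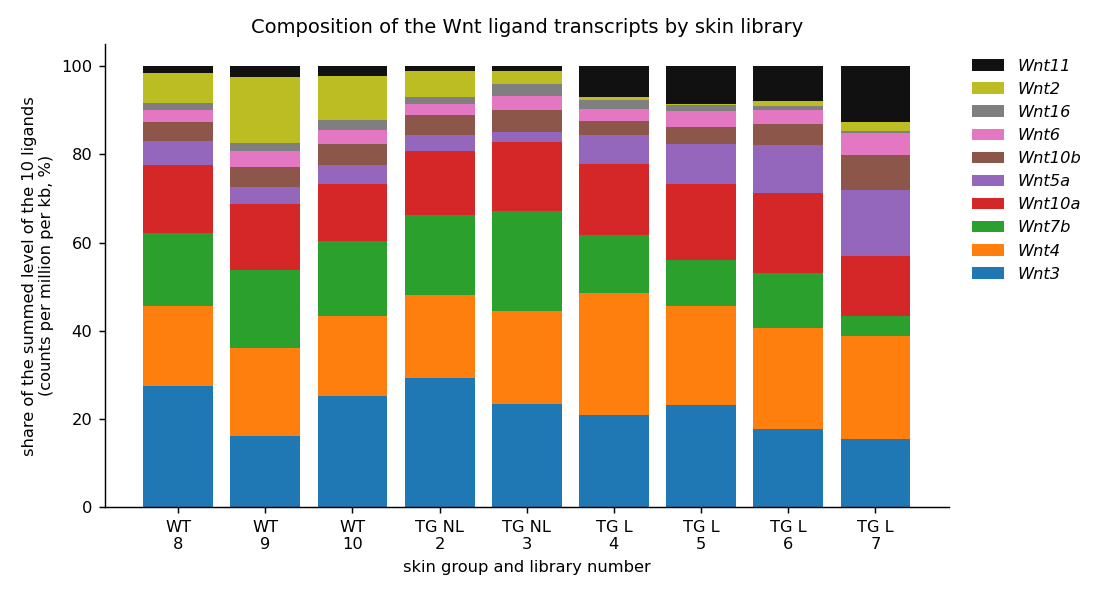
Share of each ligand in the summed level of the 10 ligands (vertical axis, % of CPM per kb) in each skin library, ordered by group (horizontal axis). The black segment, *Wnt11*, is 7.12% to 12.6% in the 4 L libraries and under 3% in the others, while the *Wnt2* segment shrinks from 6.85% or more in WT to 2.01% or less in L libraries.

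The 4 L libraries were not alike. Library 7 was the highest of them for *Wnt2*, *Wnt5a*, *Wnt6*, *Wnt10b* and *Wnt11* and the lowest for *Wnt3*, *Wnt4*, *Wnt7b*, *Wnt10a* and *Wnt16*. Library 4 was the highest for *Wnt4*, *Wnt7b* and *Wnt16* and the lowest for *Wnt5a*, *Wnt6*, *Wnt10b* and *Wnt11*. The span from lowest to highest L library was 1.47-fold for *Wnt11*, 3.58-fold for *Wnt7b* and 5.35-fold for *Wnt16*. Markers of other cell types differed along the same libraries. Basal epidermal markers summed to 9284 CPM in library 4 and 3680 CPM in library 7, suprabasal epidermal markers to 20563 and 6981 CPM, and fibroblast markers to 4108 and 8180 CPM. Their part in the spread of the ligands was not tested.

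Markers of the hair shaft and the inner root sheath also separated L skin from the other groups. The markers of hair shaft and matrix (13 of 14 in the table, among them *Krt31*, *Krt35*, *Krt81*, *Msx2*, *Foxn1* and *Hoxc13*) summed to 19.1 to 26.6 CPM in WT, 36.1 and 39.5 CPM in NL and 2097 to 6715 CPM in L skin, and 13 of 13 were called higher in L than in WT. Those of the inner root sheath, led in L skin by *Krt25*, *Krt27*, *Krt71* and *Tchh*, summed to 97.2 to 130 CPM in WT, 186 and 195 CPM in NL and 5657 to 21792 CPM in L skin, with 9 of 10 called higher. In WT and NL skin most of that sum was *Gata3*. It held 89.9 to 120 CPM in WT, 186 and 163 CPM in NL libraries 2 and 3 and 97.8 to 135 CPM in L skin. *Krt34* was at 0 in all WT libraries, and *Krt74* was at 0 in all WT and NL libraries. Hair bulge markers summed the other way, to 1821 to 2248 CPM in WT, 2944 and 3306 CPM in NL and 681 to 1589 CPM in L skin. Of these 6 genes, 3 were called higher and 2 lower in L than in WT. Dermal papilla markers overlapped between WT and L skin (54.0 to 63.4 CPM in WT, 56.9 to 98.5 CPM in L), with 3 of 8 called higher, and melanocyte markers rose in 5 of 5 (9.35 to 17.7 CPM in WT, 98.5 to 589 CPM in L).

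The part of these follicle transcripts in the ligand levels was not tested. Hair keratin and keratin-associated protein genes took 1.43% of the counts in L library 4 and 3.29% to 4.52% in the other 3 L libraries. Library 4 also held the lowest *Wnt11* level of the 4, 22.6 CPM. Other tissue moved the opposite way. Skeletal muscle markers summed to 30711 to 42283 CPM in WT, 28640 and 33411 CPM in NL and 28.6 to 8244 CPM in L skin, and adipocyte markers to 7623 to 11441, 6620 and 7558, and 818 to 4407 CPM. Endothelial markers summed to 204 to 278 CPM in WT and 76.9 to 156 CPM in L skin, the direction in which *Wnt2* moved, and the part of these tissues in that result was not tested either.

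Of the 9 other Wnt ligands, 7 were tested in skin. *Wnt8a* and *Wnt3a* were called higher in L than in WT and *Wnt9a* lower, beside 23% and 20.2% of all genes. *Wnt8a* had 0 counts in every WT library, 0 and 2 counts in NL and 31, 8, 5 and 55 counts in L libraries 4 to 7. Against a floor of 3 counts over the WT group the L mean was at least 19.6-fold higher (adjusted p = 0.0139, edgeR), a call lost without L library 4 or without L library 7. *Wnt3a*, a β-catenin ligand, differed by 0.64 ± 0.21 on the log2 scale (adjusted p = 0.0344) and *Wnt9a* by -0.67 ± 0.24 (adjusted p = 0.0471). Both calls were fragile, since the *Wnt3a* call was lost without L library 4 or 5, NL library 3, or WT library 9 or 10, and the *Wnt9a* call without any 1 of 7 libraries. Of the list, 0 to 2 genes were called when 1 library was left out.

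*Wnt2b*, *Wnt5b*, *Wnt7a* and *Wnt9b* were not called (log2 fold changes -0.68, -0.0045, -1.56 and -0.60), and *Wnt1* and *Wnt8b* were too low to be tested. The median of the 7 was -0.60, against 0.06 for all genes. EdgeR called none of the 7 between L and NL.

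The rest of the pathway was read from lists of 88 genes, of which 85 were tested and 9 stand in 2 lists. The lists were chosen with earlier results of these data known, so the shares called are no test of the pathway. In L against WT skin, 36 were called higher and 17 lower (42.4% and 20%, beside 23% and 20.2% of all genes). Against NL skin 21 were called higher and 11 lower (24.7% and 12.9%, beside 13.2% and 11.8% of all genes). Between NL and WT edgeR called none of all genes, as given above.

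Of 10 genes for lipid attachment, release and extracellular handling of Wnt proteins, 3 were called higher and 2 lower (median log2 fold change -0.02). *Porcn*, which acylates Wnt proteins, stood at 5.81 to 7.66 CPM in WT, 5.28 and 5.76 CPM in NL and 10.2 to 12.0 CPM in L skin (0.67 ± 0.15, adjusted p = 0.0062). *Notum*, which removes the lipid again, differed by 1.72 ± 0.36 and *Vps29*, a subunit of the retromer that recycles Wls, by 0.30 ± 0.09, a call lost without any 1 of the WT libraries. *Wls* itself was at 135 to 136 CPM in WT and 142 to 183 CPM in L skin and was not called (adjusted p = 0.0702). *Gpc6*, a glypican, differed by -1.32 ± 0.23 and *Trabd2b*, a protease that inactivates Wnt proteins, by -0.76 ± 0.16.

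Of 18 receptors and co-receptors, 7 were called higher and 3 lower, with a median of 0.60. *Ror2*, a receptor known for binding Wnt5a, stood at 1.51 to 3.37 CPM in WT, 1.47 and 1.45 CPM in NL and 6.77 to 17.4 CPM in L skin. The groups L and WT did not overlap, and the log2 fold change was 2.13 ± 0.38 (adjusted p = 0.0025). Among the Frizzled receptors *Fzd5* rose by 1.79 ± 0.18, and the co-receptor *Ptk7* rose by 1.39 ± 0.16. *Fzd9* (-3.23 ± 0.60) and *Fzd4* (-2.32 ± 0.44) had the largest decreases, *Fzd4* from 248 to 364 CPM in WT to 20.2 to 95.4 CPM in L skin, and *Reck* differed by -0.73 ± 0.23, a call lost without L library 4 or 5 or WT library 9 or 10. *Lrp5* (-0.30), *Lrp6* (-0.34), *Ryk* (0.18) and *Adgra2* (-0.11) were not called.

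Of 7 R-spondins and their Lgr receptors, which keep Frizzled receptors at the cell surface, 3 were called higher and 1 lower. *Rspo4* rose by 2.42 ± 0.35, *Rspo2* by 2.19 ± 0.61 and *Lgr5*, a marker of follicle stem cells, by 2.17 ± 0.25, from 4.16 to 5.61 CPM in WT to 15.2 to 29.0 CPM in L skin. *Lgr6* differed by -0.66 ± 0.20, a call lost without L library 6 or 7 or WT library 8 or 10. The *Rspo2* call rested on under 1 CPM in every library and was lost without WT library 8 or 9.

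Of 20 antagonists and feedback genes, 17 were tested, 6 called higher and 4 lower. *Wif1*, a secreted protein that binds Wnt ligands, stood at 4.17 to 4.30 CPM in WT, 4.47 and 4.17 CPM in NL and 16.7 to 22.7 CPM in L skin (2.21 ± 0.15, adjusted p = 6.03e-05). *Sostdc1* (1.94 ± 0.53) and *Nkd2* (1.87 ± 0.29) followed, and *Nkd1* rose by 1.48 ± 0.36. The decreases were in secreted Frizzled-related proteins, *Frzb* (-3.78 ± 0.55), *Sfrp5* (-2.91 ± 0.79), *Sfrp4* (-2.87 ± 0.93) and *Sfrp2* (-1.55 ± 0.38), while *Sfrp1* of the same family rose by 1.31 ± 0.26. The *Sfrp4* call was lost without L library 7, either NL library or any 1 of the 3 WT libraries, that of *Sfrp5* without WT library 8, and that of *Sostdc1* without WT library 9 or 10.

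Of 18 genes of the β-catenin relay, 6 were called in each direction. *Lef1*, the DNA-binding partner of β-catenin that is also a marker of the hair matrix, held 0.07 to 0.25 CPM in WT, 0.69 and 0.47 CPM in NL and 7.14, 9.87, 26.7 and 41.9 CPM in L skin (7.05 ± 0.87, adjusted p = 0.000589). *Tcf7* rose by 1.80 ± 0.24 and *Ctnnb1*, which encodes β-catenin, by 0.75 ± 0.16. *Pygo1* (-2.01 ± 0.14), *Btrc* (-1.02 ± 0.13) and *Dvl1* (-0.81 ± 0.12) had the largest decreases. Without WT library 8, 7 of the 18 were called in place of 12.

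Of 13 target genes of β-catenin, 12 were tested and 9 were called higher and 0 lower, with a median of 1.32. The largest were *Lef1*, *Sp5* (2.45 ± 0.87, adjusted p = 0.0485) and *Lgr5*. *Sp5* stayed under 1 CPM in every library and was called in only 2 of 16 alternatives, a call lost without any 1 of 8 of the 9 libraries (all but L library 4). *Axin2*, the target most often used as a readout of β-catenin, was not among those called, at 28.5 to 34.5 CPM in WT, 42.3 and 43.1 CPM in NL and 25.2 to 33.1 CPM in L skin (-0.08 ± 0.12, adjusted p = 0.629 against WT). Against NL skin it was lower by 0.51 ± 0.13 on the log2 scale (adjusted p = 0.0223, edgeR), and both NL libraries lay above every L library.

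Of 11 planar polarity genes, 7 were called higher and 1 lower. *Celsr3* (1.67 ± 0.56), *Vangl2* (1.27 ± 0.15) and *Celsr2* (0.98 ± 0.15) had the largest increases and *Fuz* the decrease (-0.66 ± 0.19, a call lost without any 1 of the WT libraries). Without WT library 9, 5 were called, and without WT library 10, 4 were. *Celsr3*, at 0.25 to 1.18 CPM in L skin, was past the threshold in 5 of 16 alternatives, and its call was lost without any 1 of 8 libraries (all but L library 7). The hair shaft, inner root sheath, muscle and fat markers given above differed between L and WT skin as well, and their part in the calls was not tested.

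**Figure D4:**
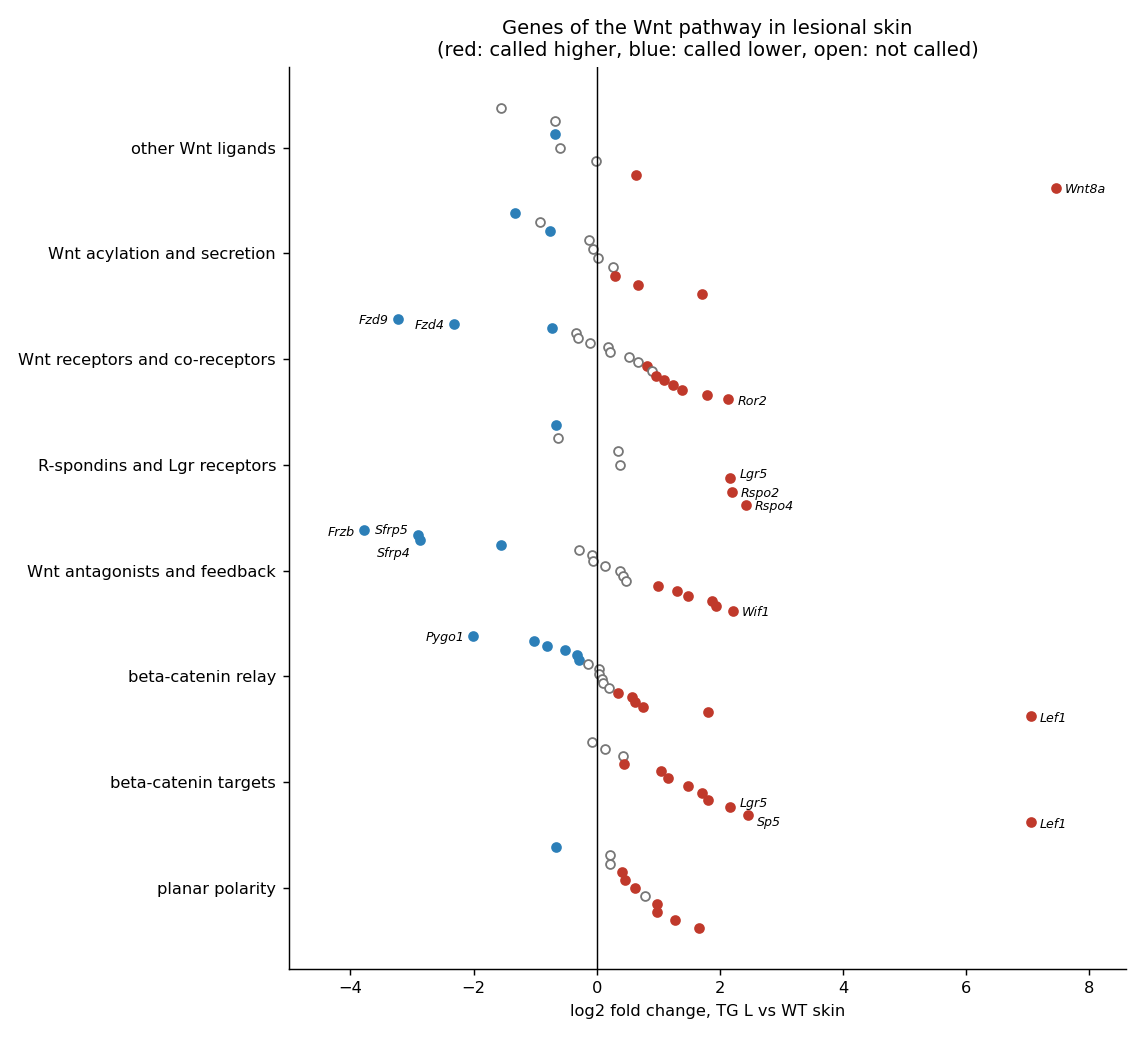
Log2 fold change of TG L against WT skin (horizontal axis) for every tested gene of 8 lists of the Wnt pathway (vertical axis), with genes called higher in red, called lower in blue and not called as unfilled circles. The position of *Wnt8a*, at 0 counts in all WT libraries, depends on the prior count of the fit. The names mark called genes beyond 2 in either direction, and of the 12 tested β-catenin targets 9 are red and 0 blue.

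By profile over the 9 skin libraries, the genes most like *Wnt11* were *Fads2*, a fatty acid desaturase, *Gm14328*, *Rnf180*, *Klhdc8a* and *Slc7a8*, an amino acid transporter. Their log2 CPM, each centred on its own mean, differed from that of *Wnt11* by a root mean square of 0.24 to 0.29, where *Wnt11* itself had an SD of 1.54. For *Wnt5a* they were *Ppp1r3b*, *Smad6*, *Syt7*, *Nckap5* and *Csgalnact1* (0.14 to 0.24, SD 1.03), and for *Wnt2* *Gm35290*, *Eepd1*, *Gm15519*, *Esr1* and *Chrdl1* (0.48 to 0.51, SD 1.82). The nearest to *Wnt4* was *Stard4* (0.08), to *Wnt6* *Utp18* (0.09), to *Wnt10a* *Psd4* (0.09) and to *Wnt10b* *Lmnb2* (0.10). Members themselves were not candidates. The 9 libraries share their groups, so these are likenesses of pattern only.

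In the lymph nodes the ligands were low, and 5 of the 10 passed the filter on low counts (*Wnt3*, *Wnt6*, *Wnt10a*, *Wnt10b* and *Wnt11*). *Wnt10a* had 65 to 213 counts per library and *Wnt3* 28 to 66. *Wnt5b*, outside the 10, reached 8.47 to 12.1 CPM and was not called. *Wnt2*, *Wnt4*, *Wnt5a*, *Wnt7b* and *Wnt16* had at most 9 counts in a node library.

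No member was called in any node comparison by edgeR. The share of all 16173 genes called was 4.98% for UVB in WT mice and 0% for UVB in TG mice, for TG against WT without UVB and for TG against WT after UVB. At an unadjusted p under 0.05 these 4 comparisons held 4256, 1507, 549 and 1131 genes, and DESeq2 called 2002, 137, 2 and 19. *Wnt11* had 13, 14 and 20 counts in WT NoTx, 14, 7 and 15 in WT UV, 21, 37 and 12 in TG NoTx and 5, 2 and 2 in TG UV libraries. The TG UV libraries lay below all other groups, among genes of which 7.11% lay wholly lower in TG UV than in TG NoTx and 4.32% wholly lower in TG UV than in WT UV. Between TG UV and TG NoTx nodes the log2 difference of *Wnt11* was -2.76 ± 0.56, which did not pass the threshold (adjusted p = 0.154, edgeR, with an unadjusted p of 0.000253). DESeq2 gave *Wnt11* an adjusted p of 0.0235 there.

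In WT mice the UVB difference of *Wnt11* was -0.34 ± 0.49 (adjusted p = 0.701), and between TG and WT after UVB it was -1.99 ± 0.59 (adjusted p = 0.673). The difference between the UVB effects of TG and WT mice, added after the data were seen, was -2.42 ± 0.75 (adjusted p = 0.848 over 16173 genes in edgeR, none of which was called), so that a genotype-dependent effect of UVB on *Wnt11* was not shown at this depth. *Wnt3* and *Wnt6* did not overlap between UV and NoTx libraries of WT mice, both lower after UVB, beside 17.3% of all genes (adjusted p = 0.819 and 0.346). Fibroblast markers summed to 59.0 to 119 CPM in TG NoTx and 20.4 to 59.5 CPM in TG UV nodes, and to 50.6 to 71.7 and 15.1 to 40.6 CPM in WT nodes. Smooth muscle markers summed to 12.5 to 25.9 and 7.21 to 11.4 CPM in TG nodes. Their part in the *Wnt11* values was not tested.

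Of the 88 pathway genes, 64 were tested in the nodes. UVB in WT mice gave 1 call in each direction, *Wif1* lower (-3.07 on the log2 scale, adjusted p = 0.0234) and *Scrib* higher (0.49, adjusted p = 0.0371), and the other 3 node comparisons had no call by edgeR among all genes. Over all genes the number called for UVB in WT nodes moved between 0, without WT UV library 8, and 2644, without TG UV library 12, so these calls depend on single libraries.

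**Figure D5:**
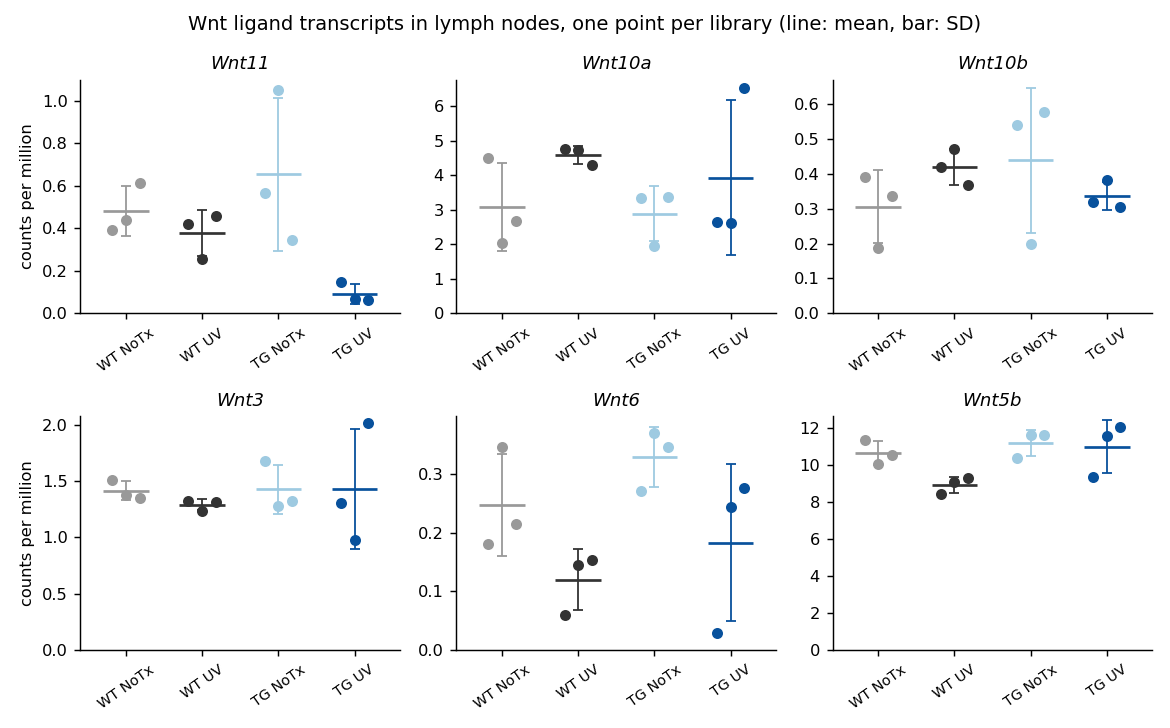
Level in CPM (vertical axes, from 0) of the 5 tested ligands and of *Wnt5b* in lymph nodes of WT and TG mice without (NoTx) and after UVB (UV), with 1 point per library, a line at the mean and a bar of 1 SD. The 3 TG UV libraries of *Wnt11* lie below those of the other 3 groups, at 2 to 5 counts each, while UV and NoTx libraries of *Wnt10a* and *Wnt10b* overlap within each genotype.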

How the data were processed

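RNA was measured in 9 skin and 12 lymph node libraries, grouped by the labels, which put all in batch 1. The authors made poly-A libraries, trimmed reads (cutadapt 4.8 stands in the submitters' processing notes), aligned them to GRCm38 with STAR 2.7.8a and deposited RSEM 1.3.3 expected counts per gene, which are not normalized. The counts were rounded to whole numbers before the fit. The annotation release is not given in the sources used here, and lengths and positions were taken from GENCODE M21. RSEM divides reads shared by similar genes.

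The filter on low values was edgeR's filterByExpr (edgeR 4.0.16 in R 4.3.3, minimum count 10, minimum total 15), after which 19101 skin and 16173 node genes were tested. Libraries of a tissue were scaled by TMM, fitted together by group and compared with the robust quasi-likelihood F-test. P-values were adjusted by Benjamini-Hochberg across every gene tested, and a gene under 0.05 is "called". Standard errors were derived from the F statistic. The study's DESeq2 (1.42.0 here) was an alternative. Precision is set by depth and by 2 to 4 libraries a group, and floors cover counting error only.

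The members and lists were chosen with earlier results of these data known. Named genes are the 19 Wnt ligands, the 3 largest increases and decreases among called genes of each list, 12 pathway genes named whatever they did, the marker genes beside them, and for likeness the 5 nearest tested genes with a mean of at least 1 CPM. *Sfrp1* and *Sfrp2* were added after their values were seen.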

Additional observations from a re-analysis of the deposited data

Results flagged for a closer look

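Among the 4 L skin libraries, 1 library stood far from the other 3 in the summed CPM of 4 of 29 lists of genes, and in none of the 102 tested Wnt pathway genes taken one by one (the 10 ligands included). Chance flags about 1 in 20 such groups. Melanocyte markers summed to 588.8 CPM in L library 7 and to 98.5 to 126 CPM in the other 3. Adipocyte markers summed to 817.6 CPM in L library 5 against 3836 to 4407 CPM. Neutrophil markers summed to 4.859 CPM in L library 5 against 1.77 to 2.23 CPM. Of that sum *Mpo* alone held 4.09 CPM. In the same library *Camp* (0.617 CPM) lay within the range of the other L libraries and *Ltf* (0.074 CPM) below it. *Ly6g* and *Ngp* had 3 and 0 counts there. Planar polarity genes summed to 499.4 CPM in L library 4 against 570 to 582 CPM.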

How the results depend on the processing

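No paired analysis was possible because the animal is not labelled for a library. L and NL libraries may come from the same mice and were treated as independent. Of the 7 ligands past the threshold for L against WT skin, none changed sign in the 16 alternatives. The ligands were chosen from these skin values, so this supports nothing about them. With edgeR fitted to the compared groups alone, 3156 genes were called for L against NL skin, 1 for NL against WT and 2431 for UVB in WT nodes, and 1 of the other Wnt ligands for L against WT. Without a filter on low counts, 1 of the other Wnt ligands was called, and 1 gene for TG against WT nodes after UVB. DESeq2 called 80 genes for NL against WT skin, and in the nodes 2002 for UVB in WT, 137 for UVB in TG (with 1 ligand, *Wnt11*), 2 for TG against WT untreated and 19 after UVB. Leaving out 1 library at a time gave 1182 to 5187 genes and 1 to 5 ligands for L against NL skin. For L against WT it gave 0 to 2 of the other Wnt ligands, 7 to 10 genes of the β-catenin relay and 4 to 8 of planar polarity. In the nodes it gave 0 to 2644 genes for UVB in WT, 0 to 236 for UVB in TG, 0 to 1 for TG against WT untreated and 0 to 2 after UVB. No scaling moved the median of all genes by more than 0.1 on the log2 scale. The cause of these changes was not tested. Ligands near or under 1 CPM in the nodes, *Wnt11* among them, rest on few counts.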
